A study of Mus musculus with 91 samples.

Results

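De novo lipogenesis is the making of fatty acids from acetyl-CoA, and 10 genes that carry it from citrate export to the finished monounsaturated acid were followed in epididymal white adipose tissue (EAT), mesenteric white adipose tissue (MAT) and liver. The 10 genes were Slc25a1, Acly, Acss2, Me1, Acaca, Acacb, Fasn, Elovl6, Scd1 and Thrsp. They were taken by symbol from the probe-to-gene table of the array. They stood for 10 of 19057 symbols and for 15 of 45281 probes, since Acss2, Elovl6, Thrsp, Slc25a1 and Acacb each had a second probe. Each gene is described by its brighter probe, which was the same probe in the 3 tissues.

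RNA came from male C57BL/6J mice that were housed singly and killed after a fast. They were fed the AIN-76 semi-purified diet, the normal diet (ND), or a high-fat diet (HFD) made from it. The HFD held more fat, with all of the increase as lard, and added cholesterol. It held less corn oil, sucrose and corn starch than the ND. EAT and MAT were taken after 2, 4, 8, 20 and 24 weeks on diet, at 7, 9, 13, 25 and 29 weeks of age. Liver was taken at the same ages and also after 6, 12 and 16 weeks on diet, at 11, 17 and 21 weeks of age, with a baseline group of 5 weeks of age at the start. EAT had 3 RNA pools per diet and week (30 arrays), MAT had 1 RNA pool per diet and week (10 arrays), and liver had 3 arrays per diet and week with 3 at baseline (51 arrays). Whether a liver array held 1 mouse or a pool is not given in the sources used here, and p-values measure the spread between these arrays.

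In the cell, citrate leaves the mitochondrion and is cleaved to acetyl-CoA, acetyl-CoA is carboxylated to malonyl-CoA, and fatty acid synthase builds palmitate from both with reducing power from NADPH. Palmitate is then elongated and desaturated to oleate. The pathway is known to be induced by insulin and carbohydrate through SREBP-1c and ChREBP, and to be held down by fasting and by dietary fat, above all polyunsaturated fat. In rodents both liver and white fat carry it out, and in bulk tissue fewer cells of a type and less RNA per cell cannot be told apart.

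The stretch before the start of transcription is a place where such regulators can bind. The 250 bases upstream of a RefSeq start are therefore shown for the 5 genes with the largest mean diet differences in EAT. Among them are Acacb and Acss2, the genes with the largest in liver. RefSeq promoters (GRCm38.p6) were at hand for 9 of the 10 genes, with a pair of starts for Me1. The start used for Acacb lies inside the gene, which begins at chr5:114146321. That of Acaca likewise lies inside a gene that begins at chr11:84129635. The Fasn start lies inside a gene that begins at chr11:120825166 on the minus strand. The start of the Me1 promoter at chr9:86687228-86687527 lies inside a gene that begins at chr9:86695914 on the minus strand. Whether these are the main promoters of the genes was not examined. The stretches lie at chr2:155517793-155518042 (plus strand) for Acss2, chr3:129532136-129532385 (plus strand) for Elovl6, chr7:97417551-97417800 (minus strand) for Thrsp, chr16:17928220-17928469 (minus strand) for Slc25a1 and chr5:114165268-114165517 (plus strand) for Acacb. They are written 5′ to 3′ with every match to the motifs below, on either strand, in capitals.
Acss2: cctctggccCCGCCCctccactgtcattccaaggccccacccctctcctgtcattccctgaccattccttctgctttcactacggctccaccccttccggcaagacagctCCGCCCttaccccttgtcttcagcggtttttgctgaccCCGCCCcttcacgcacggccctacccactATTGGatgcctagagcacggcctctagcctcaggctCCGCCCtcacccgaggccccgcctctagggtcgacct
Elovl6: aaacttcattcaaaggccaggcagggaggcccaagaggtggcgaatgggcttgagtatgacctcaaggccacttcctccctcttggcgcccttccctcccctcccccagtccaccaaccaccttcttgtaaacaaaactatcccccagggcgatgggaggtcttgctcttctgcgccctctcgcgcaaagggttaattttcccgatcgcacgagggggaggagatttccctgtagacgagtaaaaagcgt
Thrsp: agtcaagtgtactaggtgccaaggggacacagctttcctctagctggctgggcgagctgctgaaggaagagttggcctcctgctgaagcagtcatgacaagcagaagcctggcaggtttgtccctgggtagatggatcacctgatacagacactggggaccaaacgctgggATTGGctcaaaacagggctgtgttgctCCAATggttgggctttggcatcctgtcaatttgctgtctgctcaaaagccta
Slc25a1: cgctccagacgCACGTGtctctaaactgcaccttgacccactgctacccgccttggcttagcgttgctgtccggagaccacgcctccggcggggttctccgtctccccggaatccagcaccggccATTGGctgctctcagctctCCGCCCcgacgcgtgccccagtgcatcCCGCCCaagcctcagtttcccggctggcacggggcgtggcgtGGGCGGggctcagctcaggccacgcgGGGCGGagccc
Acacb: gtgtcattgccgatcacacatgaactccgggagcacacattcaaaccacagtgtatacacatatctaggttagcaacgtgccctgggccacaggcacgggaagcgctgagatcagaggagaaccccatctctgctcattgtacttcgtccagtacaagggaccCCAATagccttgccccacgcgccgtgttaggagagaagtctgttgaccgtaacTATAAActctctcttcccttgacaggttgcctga
The whole promoters of 300 bases were searched, on both strands, for the letters of 5 known elements. The NF-Y letters CCAAT, read ATTGG on the other strand, stood in 7 of the 10 member promoters, among them Acss2, Thrsp, Slc25a1 and Acacb, against 37.4% of 32851 promoters. The Sp1 letters GGGCGG, read CCGCCC on the other strand, stood in 4 (Acly, Acss2, Slc25a1 and 1 of the Me1 starts) against 35.7%. The E-box CACGTG, which USF and ChREBP bind, stood only in Slc25a1 (7.15% of all promoters). The TATA box, searched as TATAAA, stood only in the Acacb stretch, which lies inside the gene (13.6% of all promoters). A sterol regulatory element searched as TCACCCCAC stood in none of the 10 (0.551%). In the 300 bases of Elovl6 none of the 5 was found. A match is a run of letters and no measured binding.

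Of the probes on an array, 39.8% to 47.7% were detected in EAT and 35.8% to 45.2% in MAT at a detection p under 0.05. Detection calls of liver were not analysed here. Replicate arrays correlated at 0.956 or above in EAT and 0.972 or above in liver, and the 3 tables were normalized separately, so that levels are compared within a tissue only. The adipocyte list (10 of 12 genes measured) had a mean log2 level of 12.54 to 13.11 on EAT arrays and 11.50 to 12.59 on MAT arrays, and the hepatocyte list (14 genes) 13.19 to 13.75 on liver arrays. Some libraries stood apart. In EAT, 9 arrays (ND at 2 weeks, both diets at 24 weeks) had a background (the 5th percentile of intensity) of 109.9 to 121, against 75.7 to 92.1 on the other 21. The 6 EAT arrays of 8 weeks had a hepatocyte list level of 10.19 to 11.36, HFD pools of 2 weeks in EAT reached 12.80 in the testis list and of 4 weeks 12.91 in the epididymis list, and MAT arrays varied in pancreas, intestine and muscle genes.

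The lipogenic genes were lower in EAT of HFD mice in the mean of the 5 weeks. Elovl6, which lengthens palmitate, was lower by 1.02 ± 0.17 (SE) on the log2 scale, Thrsp (Spot 14, a nuclear regulator of lipogenic genes) by 0.84 ± 0.08, Acacb (acetyl-CoA carboxylase at the mitochondrion) by 0.81 ± 0.11 and Acss2 (which makes acetyl-CoA from acetate) by 0.70 ± 0.12. In all, 8 of the 10 genes fell in that mean (adjusted p 5.84e-08 for Thrsp to 0.00385 for Acly) against 11.9% of all probes, and 1 of them, Elovl6, by over 2-fold, against 0.00883%. Acaca and Me1 did not pass. The median difference of the 10 was -0.56, and that of all probes -0.01. The 2-week contrast sets arrays of different background against each other. Without that week 9 of the 10 fell, Me1 with them (-0.34 ± 0.10, adjusted p = 0.0264), against 6.22% of all probes. Without the 2-week and 24-week arrays, which leaves arrays of low background only, 4 fell (Fasn, Scd1, Slc25a1 and Acacb), against 3.58% of all probes.

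**Figure D1:**
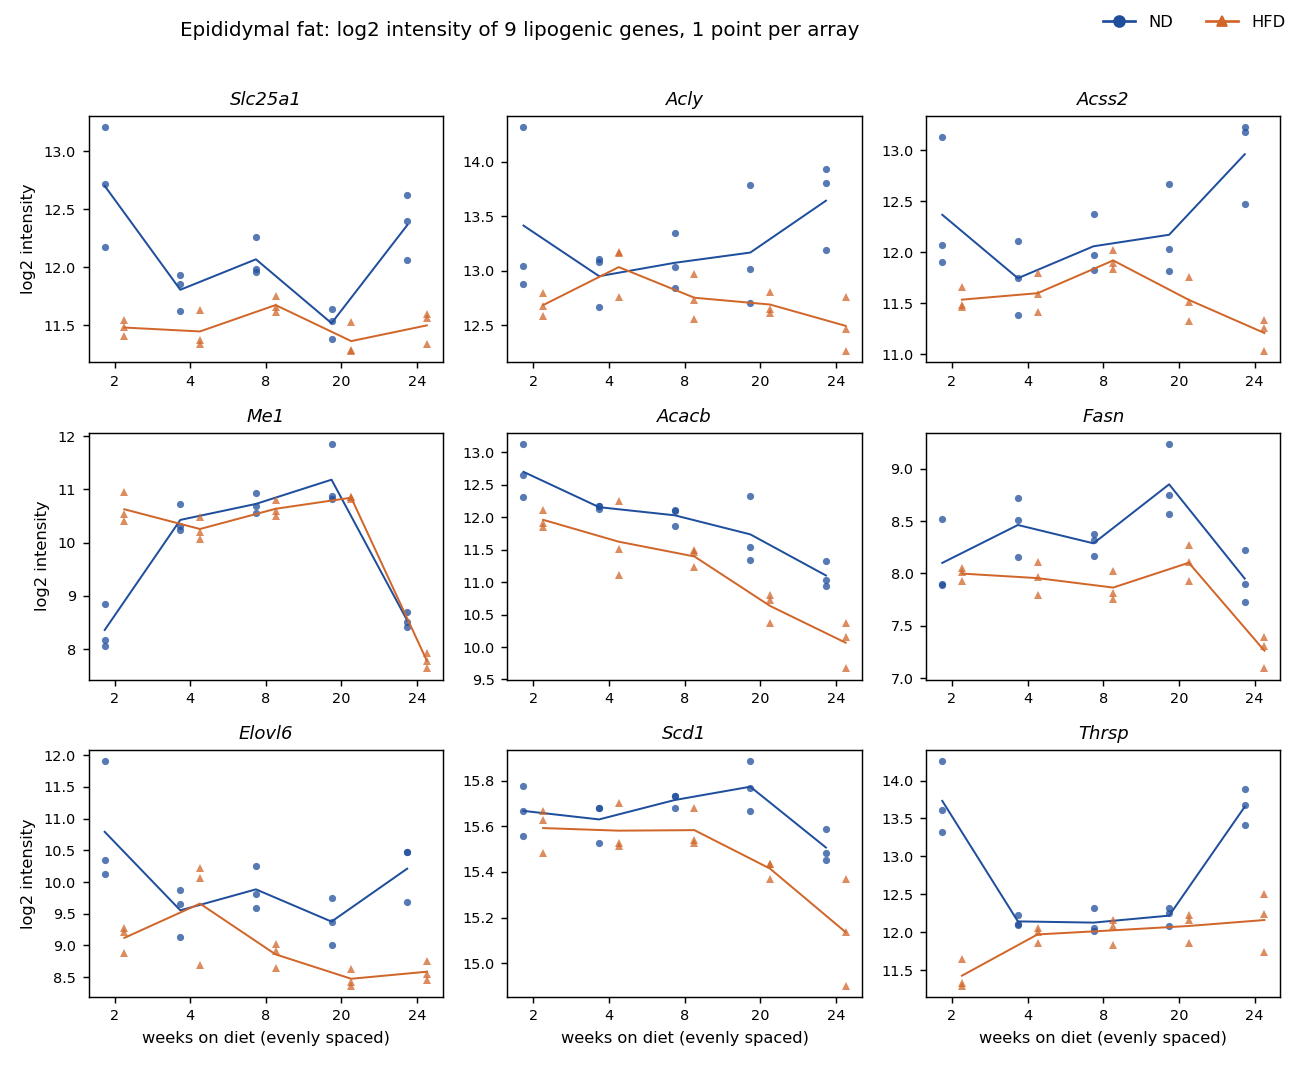
EAT log2 intensity (vertical axis) of 9 of the 10 genes against weeks on diet (horizontal axis, evenly spaced), with a point per RNA pool and a line through the mean of the 3 pools of each diet (Acaca, not detected, is left out). The HFD points lie below the ND points for all 9 genes at 24 weeks. The share of all probes with such a separation was not counted. Me1 drops on the ND arrays of 2 weeks and on all arrays of 24 weeks.

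At 24 weeks 9 of the 10 genes fell, against 4.51% of all probes, and 5 of them (Acly, Acss2, Elovl6, Thrsp and Acacb) by over 2-fold, against 0.287%. The background was high in both diets, at 116 to 120.7 on ND and somewhat lower, at 109.9 to 114.9, on HFD, and its part in these differences was not tested. Acss2 had the lowest value relative to ND. Its log2 intensity was 13.18, 12.47 and 13.23 in the 3 ND pools and 11.26, 11.34 and 11.03 in the 3 HFD pools. The pools of the diets did not overlap, and the difference of -1.75 ± 0.26 (SE) was 3.37-fold (adjusted p = 3.44e-05). Elovl6 was at 10.47, 9.69 and 10.47 on ND and 8.55, 8.75 and 8.46 on HFD (-1.62 ± 0.37, adjusted p = 0.00413). Thrsp was at 13.67, 13.41 and 13.88 on ND and 12.50, 11.74 and 12.24 on HFD (-1.49 ± 0.19, adjusted p = 3.34e-06). All HFD pools of both genes lay below all ND pools.

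Acly, the citrate lyase that yields cytosolic acetyl-CoA, was at 13.80, 13.19 and 13.94 on ND and 12.26, 12.76 and 12.46 on HFD at 24 weeks (-1.15 ± 0.29, adjusted p = 0.00844). Slc25a1, the mitochondrial citrate carrier, differed by -0.86 ± 0.17 (adjusted p = 0.0011). Acacb was at 10.95, 11.04 and 11.32 on ND and 10.15, 10.38 and 9.67 on HFD (-1.03 ± 0.25, adjusted p = 0.00619). For these 3 genes no HFD pool reached an ND pool. Fasn (-0.69 ± 0.17, adjusted p = 0.00908), Me1, the malic enzyme that supplies NADPH (-0.76 ± 0.22, adjusted p = 0.0253), and Scd1, the desaturase that makes oleate (-0.37 ± 0.09, adjusted p = 0.00633), fell too. The Fasn probe was dim and was detected in 2 of the 3 HFD pools, and the Scd1 probe lay at 14.90 to 15.59 at 24 weeks, where the highest value of any probe on an EAT array was 16.1. Without ND pool 3 of 24 weeks Acly (adjusted p = 0.0576), Fasn (0.0769) and Me1 (0.112) lost their call. Me1 also lost it without ND pool 1 (0.0599) or HFD pool 4 (0.0598) or 6 (0.0877), and Scd1 without HFD pool 6 (0.0617) or with the 6 arrays of that week fitted alone (0.135).

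The level of the ND pools moved as well as that of the HFD pools. The ND mean of Acss2 was 12.06, 12.17 and 12.96 in the order 8, 20 and 24 weeks, while the HFD mean was 11.92, 11.53 and 11.21. The ND mean of Thrsp was 12.13, 12.22 and 13.65 in the same order, and the HFD mean 12.03, 12.08 and 12.16. Between 20 and 24 weeks the array background rose in both diets together with these ND levels, and the part of the background in them was not tested.

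At 20 weeks 3 of the 10 genes fell in EAT, against 3.54% of all probes. Acacb was at 12.33, 11.54 and 11.33 on ND and 10.72, 10.81 and 10.38 on HFD (-1.10 ± 0.25, adjusted p = 0.00506). Fasn was at 9.23, 8.57 and 8.75 on ND and 8.27, 8.11 and 7.93 on HFD (-0.75 ± 0.17, adjusted p = 0.00625). The HFD pools of both lay below the ND pools. Scd1 differed by -0.36 ± 0.09 (adjusted p = 0.0113), but by -0.14 (adjusted p = 0.335) when arrays were scaled to a common median instead. Acss2 (-0.64 ± 0.26) and Elovl6 (-0.90 ± 0.37) had no overlap between diets but did not pass (adjusted p = 0.171 and 0.177). ND pool 1 was the highest ND pool of Acacb, Fasn and Scd1. Without it none of the 3 passed (adjusted p = 0.0579, 0.0681 and 0.0806), and without HFD pool 3 Scd1 did not (0.0558). With the 6 arrays of that week fitted alone Fasn (0.0548) and Acacb (0.0528) lost their call and Elovl6 passed (0.0314).

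The macrophage list stood beside these falls. All of its 11 genes rose at 20 and at 24 weeks, by a median of 1.28 and 1.18, and its mean level was 9.98 to 10.52 on ND and 11.52 to 11.61 on HFD at 20 weeks. The adipocyte list had a median difference of -0.33 at 20 weeks (2 of 10 measured genes fell) and -0.40 at 24 weeks (5 of 10 fell). The mesothelium list was at -0.78 and -0.44. Their part in the falls of the lipogenic genes was not tested.

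At 4 and at 8 weeks none of the 10 genes passed in either direction, against 0.139% and 0.192% of all probes that fell. The median of the 10 was -0.16 at 4 weeks and -0.23 at 8 weeks. Fasn had HFD pools below the ND pools at both weeks, with ND at 8.15, 8.72 and 8.51 and HFD at 8.11, 7.96 and 7.80 at 4 weeks (-0.51 ± 0.17, adjusted p = 0.265). Elovl6 was at 9.59, 9.80 and 10.25 on ND and 9.02, 8.64 and 8.91 on HFD at 8 weeks (-1.03 ± 0.37, adjusted p = 0.286). Neither passed, whereas fitted on the 6 arrays of 8 weeks alone Fasn, Elovl6, Slc25a1 and Acacb did, against 2.3% of all probes. The HFD pools of Elovl6 at 4 weeks were split, at 8.69, 10.23 and 10.06, and the high pair were pools 2 and 3, the pools with epididymis transcripts. Without them the difference was -0.86 (adjusted p = 0.44) in place of 0.11. Their part in it was not tested. At 8 weeks the hepatocyte list was high in both diets (10.19 to 11.36 on ND, 10.58 to 11.09 on HFD). Without those 6 arrays 8 of the 10 genes again fell in the mean of the other weeks, against 11.7% of all probes.

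At 2 weeks 6 of the 10 genes fell in EAT, against 21.7% of all probes, and Me1 rose, against 14.5%. Thrsp was at 13.62, 13.32 and 14.26 on ND and 11.65, 11.30 and 11.34 on HFD (-2.30 ± 0.19, 4.93-fold, adjusted p = 7.17e-10). Slc25a1 was at 12.18, 12.72 and 13.21 on ND and 11.41, 11.48 and 11.54 on HFD (-1.22 ± 0.17, adjusted p = 4.02e-06). Elovl6 was at 10.12, 10.35 and 11.91 on ND and 9.27, 8.88 and 9.21 on HFD (-1.67 ± 0.37, adjusted p = 0.000932). None of the 3 genes overlapped between diets, and ND pool 3 was the highest for Thrsp, Slc25a1 and Elovl6. The share of all probes without overlap was not counted at this or any other week. Without that pool Acly (adjusted p = 0.424) and Acss2 (0.156) no longer passed. Acly lost its call without any of the 3 HFD pools (0.0688 to 0.113), and Acacb without ND pool 1 (0.141) or HFD pool 1 (0.0658) or 3 (0.0548).

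Me1 was at 8.06, 8.16 and 8.85 on ND and 10.40, 10.54 and 10.94 on HFD at 2 weeks (2.27 ± 0.22, adjusted p = 1.36e-08). Over the whole of EAT its level was 7.64 to 8.85 on the 9 arrays of high background and 10.07 to 11.85 on the other 21. Those 9 are the ND arrays of 2 weeks and all arrays of 24 weeks, so background cannot be told apart from diet and week. At 2 weeks the ND arrays were of the first kind (118 to 119.7) and the HFD arrays of the second (89.9 to 92.1). The ND difference between 20 and 24 weeks spans a similar but wider step of background, since the ND arrays of 20 weeks were at 79.1 to 80.2. ND at 20 weeks minus ND at 24 weeks, low background minus high, was taken off the 2-week contrast. In the contrast so changed 2 of the 10 genes fell, against 2.74% of all probes, and none rose. Of the 6 falls only that of Acacb kept its call (-1.37, adjusted p = 0.0233), and Fasn, which had not passed at 2 weeks, gained one (adjusted p = 0.0175). Thrsp was at -0.87 (adjusted p = 0.0576), Elovl6 at -0.84 (adjusted p = 0.40) and Me1 at -0.37 with the sign turned (adjusted p = 0.552). That ND difference also holds 4 weeks of age. HFD pools of 2 weeks had a testis list level of 7.92 to 12.80 against 6.97 to 7.30 on ND and a hepatocyte list level of 7.63 to 9.36 against 6.98 to 7.06, and the part of those cells in the 2-week values was not tested.

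**Figure D2:**
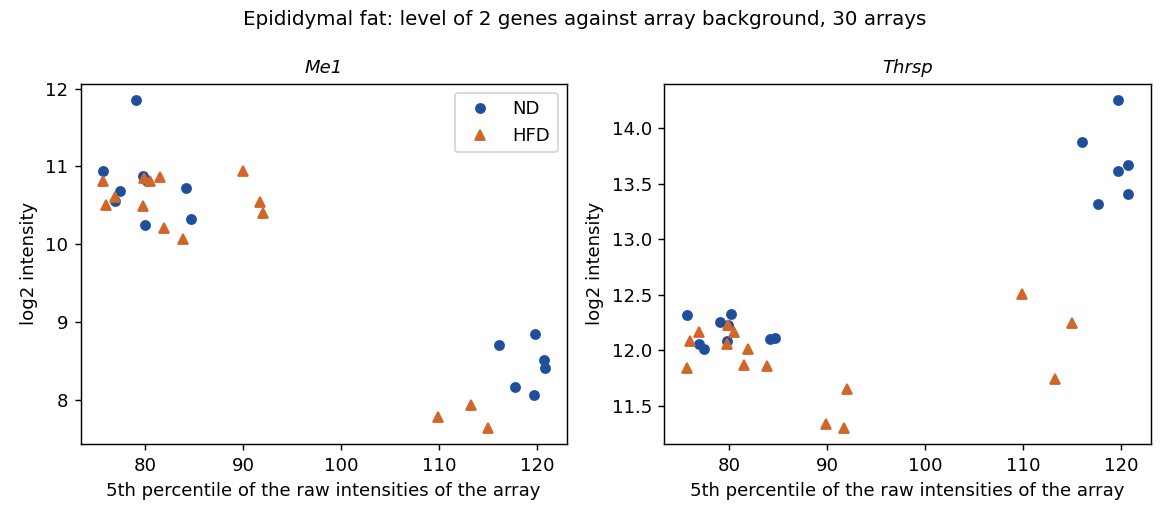
EAT log2 intensity of Me1 and Thrsp (vertical axes) against the 5th percentile of the array's probe intensity (horizontal axis), 1 point per array, coloured by diet. The Me1 points of the 9 arrays of high background lie at 7.64 to 8.85 and those of the other 21 at 10.07 to 11.85.

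The diet difference varied with week in 4 of the 10 genes in EAT (F-test of the interaction, against 29% of all probes). These were Me1 (adjusted p = 3.33e-07), Thrsp (4.09e-07), Acss2 (0.00683) and Slc25a1 (0.00701). Without the 2-week arrays Acss2 (adjusted p = 0.00523) and Thrsp (0.000375) passed, against 6.05%, and Me1 did not (0.405). For both genes the difference was larger at 24 weeks than at 4, 8 and 20 weeks. Without the 2-week and the 24-week arrays none of the 10 passed. Without ND pool 3 of 2 weeks 7 of the 10 passed in place of 4. The share of all probes was not counted in these last fits. Acaca, the cytosolic carboxylase that makes malonyl-CoA for synthesis, was not detected on any EAT or MAT array (6.31 to 6.66 in EAT), and no fold is given for it.

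The second probes of Acss2, Thrsp and Slc25a1 gave the same direction as the main probe in the EAT mean, at -0.39 ± 0.08, -0.59 ± 0.10 and -0.65 ± 0.08, and each passed (adjusted p 0.000388, 7.96e-05 and 1.31e-06). The second probes of Elovl6 and Acacb were not detected in EAT. Of the neighbour list, 38 further genes of fatty acid and triglyceride synthesis and its control with 37 measured, 16 fell and 2 rose in the EAT mean, with a median of -0.10. Tkt, a transketolase of the pentose phosphate pathway, was lowest at -0.83 ± 0.10 (adjusted p = 9.15e-07). Pcx, which feeds oxaloacetate to citrate, was at -0.70 ± 0.07 and Pdha1 of the pyruvate dehydrogenase complex at -0.62 ± 0.09. Lpin1 and Dgat1 of triglyceride assembly were at -0.70 ± 0.08 and -0.60 ± 0.05. Mlxipl, which encodes ChREBP, was at -0.62 ± 0.05 (adjusted p = 3.8e-09).

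In liver Acacb and Acss2 had the largest differences. Acacb was lower by 1.44 ± 0.08 in the mean of 8 weeks (2.71-fold, adjusted p = 9.95e-19) and Acss2 by 0.91 ± 0.06 (1.88-fold, adjusted p = 8.68e-16). Elovl6 (-0.49 ± 0.07), Me1 (-0.37 ± 0.04), Thrsp (-0.35 ± 0.09), Acly (-0.22 ± 0.04) and Slc25a1 (-0.22 ± 0.03) fell by less. Thus 7 of the 10 fell in the liver mean, against 7.43% of all probes, and Acacb fell over 2-fold, against 0.042%. Scd1 (0.02 ± 0.03, adjusted p = 0.724), Fasn (-0.07 ± 0.04, adjusted p = 0.261) and Acaca (0.03 ± 0.02, adjusted p = 0.396) did not pass. The median of the 10 was -0.28. The Fasn probe lay at 7.02 to 7.70 and that of Acaca at 6.53 to 6.80 on the ND and HFD arrays, and whether they were detected in liver was not analysed here. The Scd1 probe lay at 15.20 to 15.83 on these arrays, where the highest value of any probe on a liver array was 15.98. Without the 24-week arrays the same number, 7, fell, against 6.18% of all probes.

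**Figure D3:**
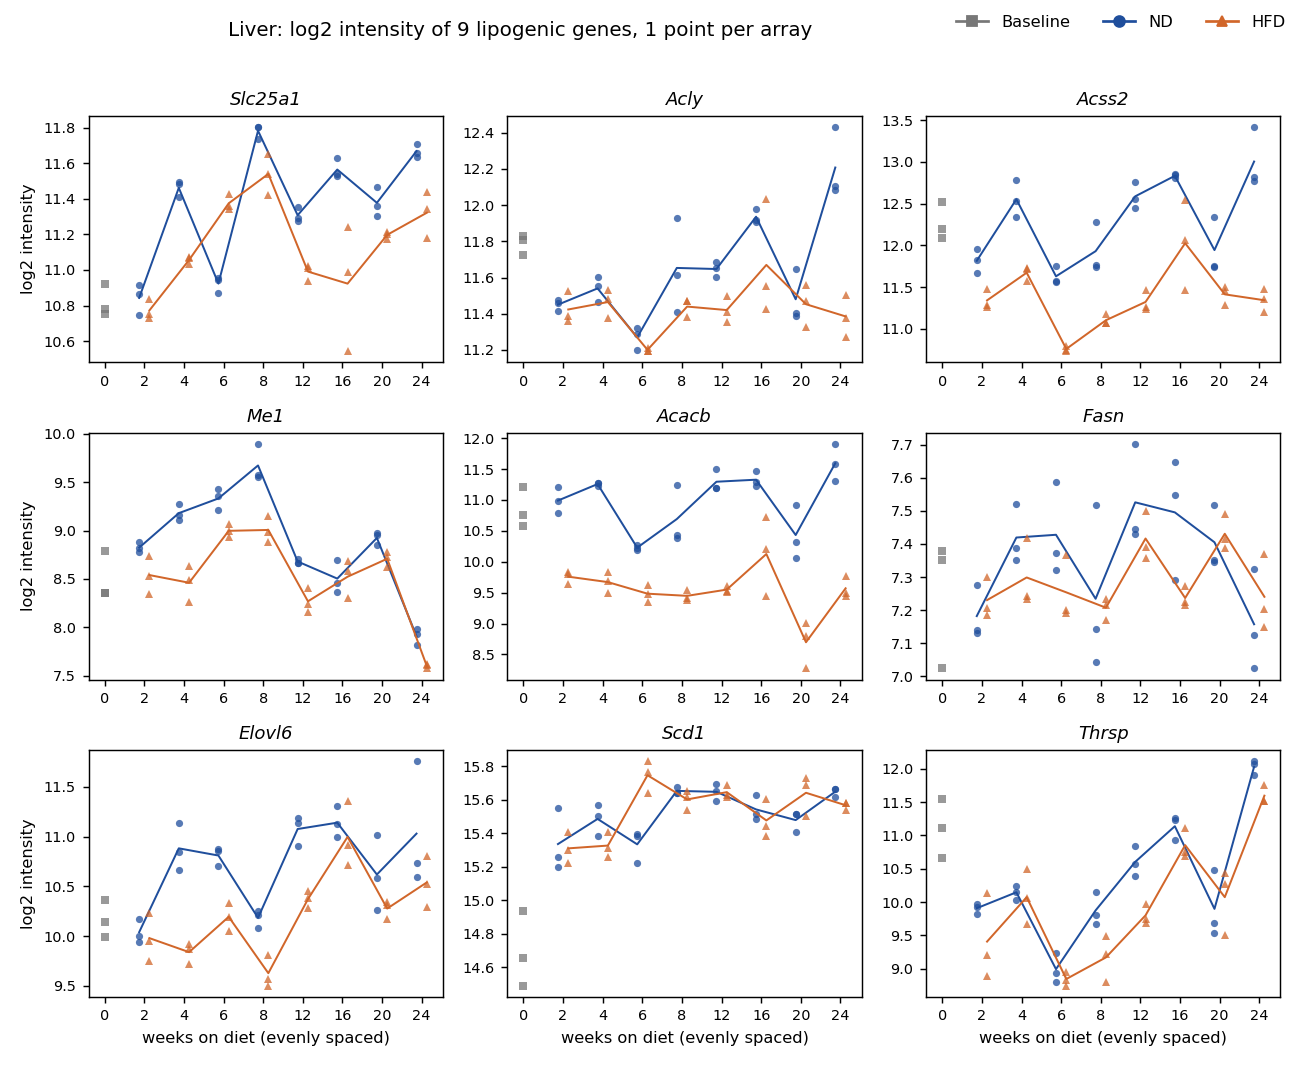
Liver log2 intensity (vertical axis) of 9 of the 10 genes against weeks on diet (horizontal axis, evenly spaced), 1 point per array, with lines through the mean of each diet and the 3 baseline arrays in grey. Acacb HFD points lie below the ND points at every week, and Thrsp rises and falls together in both diets.

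Acacb was the only member that fell at each of the 8 weeks. At 2 weeks it was the only member that passed, against 0.76% of all probes that fell, with ND at 10.98, 11.21 and 10.78 and HFD at 9.64, 9.83 and 9.80 (-1.23 ± 0.22, adjusted p = 0.000449). At 24 weeks it was at 11.91, 11.30 and 11.57 on ND and 9.78, 9.45 and 9.49 on HFD (-2.02 ± 0.22, 4.07-fold, adjusted p = 7.44e-09). The smallest difference was that of 6 weeks (-0.74 ± 0.22, adjusted p = 0.0225), where the ND mean was the lowest of any week (arrays at 10.19 to 10.27). No HFD array reached an ND array of the same week. The 6-week call was lost without any 1 array but HFD array 3 (adjusted p = 0.0598 to 0.111), and the 16-week call with that week fitted alone (0.272). The second Acacb probe lay at 6.91 to 7.09 in the weekly means, showed no such difference (-0.03 ± 0.03, adjusted p = 0.612) and had the opposite sign at 12 weeks (0.16, adjusted p = 0.528).

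Acss2 was lower on HFD at every week without overlap, and passed at all weeks but 2 and 20. At 12 weeks it was at 12.76, 12.55 and 12.45 on ND and 11.26, 11.47 and 11.24 on HFD (-1.26 ± 0.17, adjusted p = 5.42e-06). At 24 weeks it was at 13.42, 12.77 and 12.82 on ND and 11.36, 11.20 and 11.47 on HFD (-1.66 ± 0.17, 3.16-fold, adjusted p = 3.46e-09). The ND mean moved from 11.63 at 6 weeks to 13.00 at 24 weeks, and the HFD mean from 10.76 to 11.34. At 16 weeks HFD array 1 (12.54) stood above HFD arrays 2 (12.07) and 3 (11.47), and it was also the highest HFD array of Acacb (10.72 against 10.21 and 9.45) and of Acly (12.03 against 11.55 and 11.43). Without it Acly fell at 16 weeks (-0.45, adjusted p = 0.00372) in place of -0.27 (adjusted p = 0.134).

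Of the weeks, 4 weeks had the most falls in liver, with 5 of the 10 (Acss2, Elovl6, Me1, Slc25a1 and Acacb) against 1.08% of all probes. Elovl6 was then at 10.84, 11.14 and 10.67 on ND and 9.87, 9.72 and 9.92 on HFD (-1.04 ± 0.19, adjusted p = 0.000327), and Me1 at 9.27, 9.16 and 9.11 on ND and 8.49, 8.26 and 8.63 on HFD (-0.72 ± 0.11, adjusted p = 2.03e-05). Neither overlapped. At 8 weeks 3 fell (Acss2, Me1 and Acacb, against 1.42%), at 16 weeks 3 (Acss2, Slc25a1 and Acacb, against 2.67%) and at 20 weeks Acacb alone (against 1.01%). At 12 weeks 4 fell (Acss2, Elovl6, Me1 and Acacb, against 0.446%), of which Elovl6 (adjusted p = 0.0446) lost its call without any 1 of the 6 arrays and Me1 (adjusted p = 0.0414) without any but HFD array 3. At 24 weeks 4 fell (Acly, Acss2, Slc25a1 and Acacb, against 2.09%). Slc25a1 lost its call there without HFD array 6 (adjusted p = 0.0891), and Elovl6 passed without ND array 2 (-0.71, adjusted p = 0.0292). ND arrays of 8 weeks reached 9.74 in the pancreas list, against 7.36 to 7.42 on HFD.

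At 6 weeks the members went both ways, with 4 that fell (Acss2, Elovl6, Me1 and Acacb, against 3.45% of all probes) and 2 that rose (Scd1 and Slc25a1, against 3.98%). Slc25a1 was at 10.94, 10.87 and 10.96 on ND and 11.34, 11.43 and 11.36 on HFD (0.45 ± 0.09, adjusted p = 0.000317). Scd1 was at 15.38, 15.22 and 15.40 on ND and 15.83, 15.64 and 15.77 on HFD (0.41 ± 0.08, adjusted p = 0.000506). Both rises held without overlap and without any single array, whereas of the falls only that of Acss2 did so. The ND mean of Slc25a1 was 10.92 at 6 weeks, between 11.46 at 4 weeks and 11.78 at 8 weeks, and the HFD means were 11.37, 11.06 and 11.54. The second Slc25a1 probe was at 0.16 at 6 weeks (adjusted p = 0.495), so that the rise rests on the main probe, while at 4 and 16 weeks it fell like the main probe (-0.46 and -0.61, adjusted p = 0.00394 and 6.98e-05).

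The diet difference varied with week in 5 of the 10 in liver, against 5.37% of all probes: Slc25a1 (adjusted p = 6.24e-06), Acly (0.00298), Acss2 (0.0129), Scd1 (0.0149) and Me1 (0.0153). Without the 24-week arrays 4 passed, and the share of all probes was not counted in that fit. For Acly the difference was between -0.27 and -0.03 up to 20 weeks and -0.82 ± 0.10 at 24 weeks, with ND at 12.43, 12.09 and 12.11 and HFD at 11.38, 11.27 and 11.50 (adjusted p = 2.6e-07). The ND level itself moved over the weeks in 9 of the 10 genes (F-test, against 39.7% of all probes) and the HFD level in 8 (against 42.4%). Acaca passed in neither and Fasn only on ND.

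Thrsp moved most over the weeks, and in both diets. Its ND mean was 8.99 at 6 weeks and 12.03 at 24 weeks, and its HFD mean 8.84 and 11.60, so that the means of these weeks lay farther apart than those of the diets. The diet difference passed at no single week in the fit of all arrays, but with a week fitted alone Thrsp fell at 12 weeks (-0.80, adjusted p = 4.09e-06) and at 24 weeks (adjusted p = 0.00478), and with array weights at 12 weeks (adjusted p = 0.0269). Me1 went the other way, from 9.67 (ND) and 9.01 (HFD) at 8 weeks to 7.91 and 7.60 at 24 weeks. Scd1 was at 14.49 to 14.94 in the 3 baseline arrays and at 15.20 or above in every later array of either diet. At baseline Acss2 was at 12.09 to 12.52, Elovl6 at 9.99 to 10.36 and Thrsp at 10.66 to 11.54, within the range of their later ND arrays. Whether array background took part in these shifts was not analysed in liver.

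Of the neighbour list 12 genes fell and 5 rose in the liver mean, with a median of -0.06. Fads1 and Fads2, the desaturases of polyunsaturated acids, were at -0.92 ± 0.05 (adjusted p = 3.26e-19) and -0.87 ± 0.06 (adjusted p = 2.37e-16), and Fads1 fell at every week. Srebf1, which encodes SREBP-1, rose by 0.82 ± 0.06 (adjusted p = 3.37e-14), with a weekly difference of 0.36 to 1.12. Lpin1 (-0.63 ± 0.09), the elongase Elovl3 (-0.57 ± 0.07) and Insig1, which retains SREBP in the endoplasmic reticulum (-0.53 ± 0.04), fell. Srebf1 thus went the other way from Acss2, Elovl6 and Acacb, and in EAT it fell (-0.33 ± 0.07, adjusted p = 0.00123). The macrophage list rose in liver (10 of 11 genes in the mean, median 0.69), the hepatocyte list had a median of -0.01 and the adipocyte list was at 8.36 to 8.73 on HFD and 8.16 to 8.45 on ND, with 3 of 10 genes that rose. Their part was not tested.

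Over the 51 liver arrays the mean of the standardized members correlated best with Acss2 (Pearson's r 0.86), Elovl6 (0.77), Acacb (0.75) and Acly (0.74), and least with Me1 (0.04) and Acaca (0.14). The 5 other genes most like that mean were Chrna4 (r 0.87), Cyb5r3 (0.84), which encodes the reductase of cytochrome b5, Fads1 (0.83), Pklr (0.83), the liver pyruvate kinase, and Acpp (0.83). Each member is itself part of that mean, which raises its r, whereas the 5 other genes are not. The points share diet and age groups, and the correlations are a description. In the liver mean these 5 differed by -0.47, -0.42, -0.92, -0.36 and -0.71.

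In MAT, where each diet had 1 array a week and no week could be tested, the median of the members was below 0 at every week but 8. Over 2-fold lower at 2 weeks were 6 of the 10 (against 0.819% of all probes), at 4 weeks 5 (0.0309%), at 8 weeks none (0.665%), at 20 weeks 4 (0.57%) and at 24 weeks 8 (0.846%). None was over 2-fold higher at any week. The median of the 10 was -1.13, -0.99, 0.19, -0.90 and -3.02 at 2, 4, 8, 20 and 24 weeks, and the median of all probes was between -0.01 and 0.01.

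**Figure D4:**
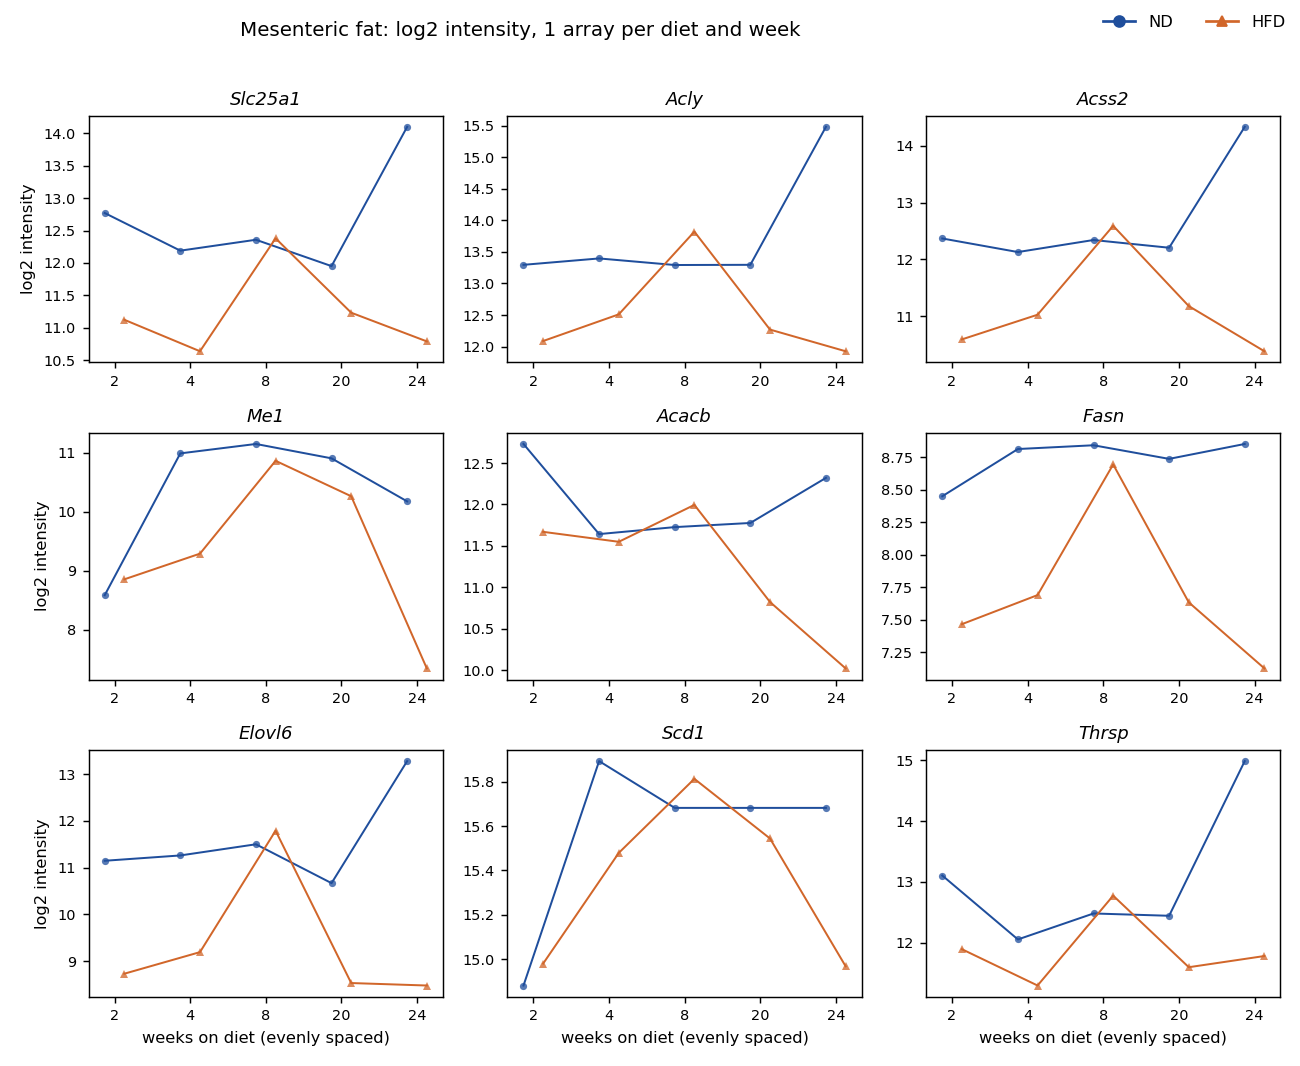
MAT log2 intensity (vertical axis) of 9 of the 10 genes against weeks on diet (horizontal axis, evenly spaced), 1 point per array and 1 array per diet and week. The diets lie together at 8 weeks and farthest apart at 24 weeks, where the ND points of Acly, Acss2, Elovl6, Thrsp and Slc25a1 are their highest.

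Elovl6 had the largest difference of the 10 at each week but 8. It was at 11.15 on ND and 8.73 on HFD at 2 weeks, 11.26 and 9.19 at 4, 11.50 and 11.79 at 8, 10.67 and 8.53 at 20, and 13.28 and 8.48 at 24. The HFD level was thus below every ND level at each week but 8. The difference of 24 weeks was 28.0-fold. Acss2 was at 12.37, 12.13, 12.34, 12.20 and 14.33 on ND and at 10.59, 11.03, 12.59, 11.18 and 10.38 on HFD. Acly was at 13.29, 13.40, 13.29, 13.29 and 15.48 on ND and at 12.09, 12.51, 13.82, 12.27 and 11.93 on HFD. Both MAT arrays of 24 weeks had a high background (117.2 on ND and 122.3 on HFD, against 81.5 to 84.8 from 4 to 20 weeks), whose part was not tested. In Acss2 and Acly 4 of the 5 ND arrays lay close together and the ND array of 24 weeks stood above them, while the HFD array of 8 weeks stood above the other HFD arrays.

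Slc25a1 was at 12.77, 12.19, 12.36, 11.95 and 14.10 on ND and 11.12, 10.64, 12.38, 11.23 and 10.79 on HFD. Thrsp was at 13.11, 12.05, 12.48, 12.44 and 14.99 on ND and 11.89, 11.30, 12.78, 11.60 and 11.78 on HFD. For both the ND array of 24 weeks was the highest, followed by that of 2 weeks, and the HFD array of 8 weeks stood above the other HFD arrays. Fasn was at 8.45 to 8.85 on ND and, apart from 8.70 at 8 weeks, at 7.12 to 7.69 on HFD. Acacb differed little at 4 weeks (11.64 and 11.55) and by -2.30 at 24 weeks (12.32 and 10.02). Me1 was at 8.58 on ND and 8.85 on HFD at 2 weeks, 10.99 and 9.29 at 4, and 10.18 and 7.34 at 24, so that it was lower on HFD at each week but 2. Scd1 stayed between 14.88 and 15.89 and differed by at most 0.71, where the highest value of any probe on a MAT array was 16.04.

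Over the 5 weekly pairs none of the members passed after adjustment (limma with week as a block, smallest adjusted p = 0.812), and no probe of the array did (0%). At an unadjusted p under 0.05, 8 of the 10 were lower, against 2.95% of all probes. Elovl6 averaged -2.23 ± 0.62 (unadjusted p = 0.00967), Acss2 -1.52 ± 0.53 (0.0256), Slc25a1 -1.44 ± 0.43 (0.0131), Acly -1.23 ± 0.51 (0.0477) and Fasn -1.02 ± 0.20 (0.00157). The median of the 10 was -1.09 over the 5 pairs, and -0.64 without the pair of 24 weeks. Without the pair of 2 weeks, whose ND array had a background of 108.1 and whose HFD array 81.3, it was -1.18.

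MAT arrays also differed in other cell types. The intestinal epithelium list differed by a median of 2.67 (4 weeks), -2.97 (8 weeks), -0.84 (20 weeks) and 2.91 (24 weeks), with 6 of its 8 genes detected. The muscle list differed by -4.63 at 2 weeks (12.04 on ND and 7.55 on HFD) and the brown fat list by -2.04. The pancreas list was at 15.27 on ND and 15.03 on HFD at 2 weeks, and at 10.70 and 9.01 at 8 weeks. The adipocyte list differed by -0.46, 0.07, -0.15, 0.06 and -0.53 at the 5 weeks. Their part in the members' values was not tested. The neighbour list had 31 of 37 measured genes lower over the 5 pairs with a median of -0.19, none with a call. Its largest averages were Pdha1 (-0.84 ± 0.27), Pcx (-0.77 ± 0.31), Tkt (-0.77 ± 0.17), Dgat1 (-0.64 ± 0.12), Insig1 (-0.61 ± 0.25) and Taldo1 (-0.60 ± 0.14).

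**Figure D5:**
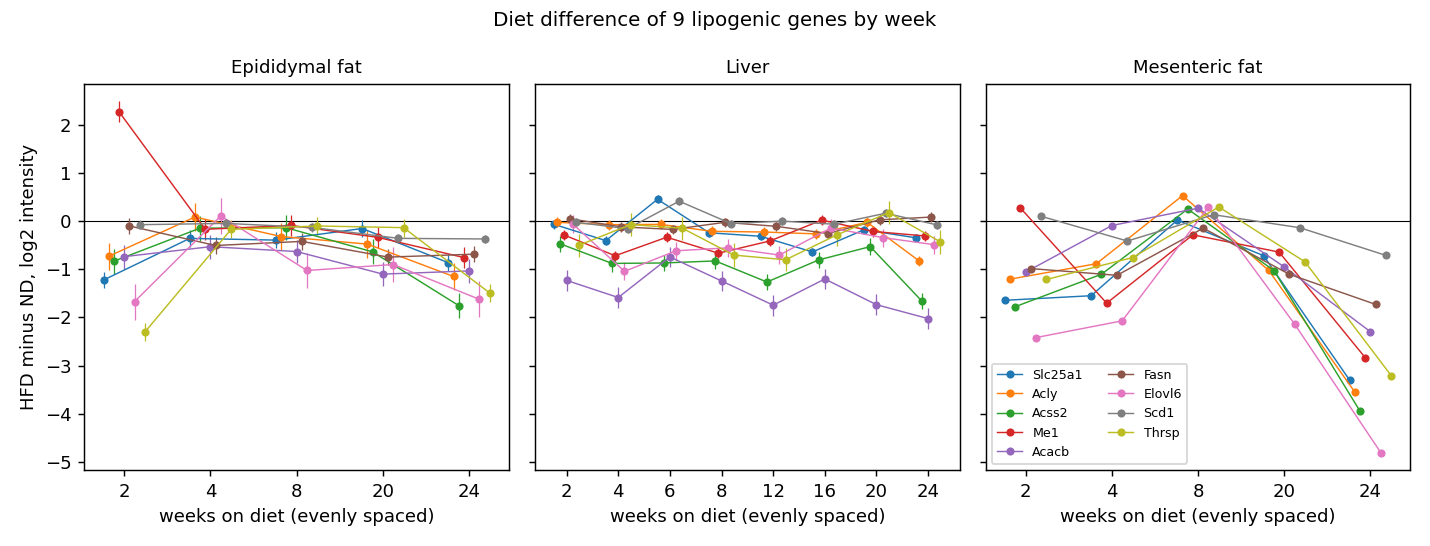
HFD minus ND on the log2 scale (vertical axis) against weeks on diet (horizontal axis, evenly spaced) for 9 of the 10 genes in EAT, liver and MAT, with bars of 1 SE in EAT and liver and none in MAT, which had 1 array per diet and week. Acacb lies lowest in liver at each week but 6, and the MAT lines return to near 0 at 8 weeks and reach -4.81 (Elovl6) at 24 weeks.

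Side by side, with no test between tissues, Elovl6 had the lowest mean difference in EAT (-1.02) and MAT (-2.23) and Acacb in liver (-1.44). Acss2 fell in both EAT (-0.70 ± 0.12) and liver (-0.91 ± 0.06). Scd1 fell by 0.20 ± 0.04 in EAT and did not pass in liver. Its probe lay near the highest value of any probe in both tissues, at 14.90 to 15.89 in EAT and 15.20 to 15.83 in liver. At 24 weeks the ND arrays had their highest level of any week for Acly and Acss2 in all 3 tissues. For Acss2 these ND means were 12.96 in EAT, 14.33 in MAT and 13.00 in liver, and at 20 weeks they were 12.17, 12.20 and 11.94. In EAT and MAT the 24-week arrays were also those of high background and the 20-week arrays of low background, and the part of it in these levels was not tested. The tissues share diets and ages, and whether they came from the same mice is not given in the sources used here.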

How the data were processed

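RNA of EAT, MAT and liver was hybridised to Illumina MouseWG-6 v2 BeadChips. For EAT and MAT the authors deposited probe intensity values (BeadStudio 3.1.3 in the submitters' processing notes) with a detection p-value for each probe, neither normalized nor filtered. For liver the log2 values that the authors deposited after quantile normalization (R 2.4.1 in the same notes) were used, and such values also exist for the fat tissues. EAT and MAT intensities were quantile normalized within the tissue and taken to log2, and differed from the deposited log2 values by at most 0.000715 in EAT and 0.00112 in MAT.

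Each tissue was fitted with limma 3.58.1 in R 4.3.3, with 1 term per diet and week, and p-values were adjusted by Benjamini-Hochberg over all 45281 probes for each contrast. A gene rose or fell where its adjusted p was under 0.05. Errors are standard errors of the fit. Contrasts were HFD minus ND at each week and averaged over weeks, with F-tests of diet by week and, in liver, across weeks within a diet. MAT weeks had no test, and a difference over 2-fold was counted. Overlap of arrays between diets is a description and was looked at for the members only. The fits were tested on simulated data.

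The members and gene lists were chosen with earlier results of these data known. All 10 members are named by the probe with the highest mean over the tissues. From the neighbour list up to 6 genes per tissue with the largest mean difference among those that passed are named, without a call in MAT, and in liver the 5 other genes that correlate best with the members. Srebf1 in EAT was added after its values were seen. Precision is limited by the number of arrays. Alternatives covered normalization, background correction, filters, probe, test, pairing, weights and left-out arrays, and those without the 8-week arrays, without the 2-week and 24-week arrays together, without HFD pools 2 and 3 of 4 weeks, and without the 24-week liver arrays were chosen after seeing the data.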

Additional observations from a re-analysis of the deposited data

Results flagged for a closer look

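The diet difference changed between weeks, by the F-test of the interaction in limma adjusted over all probes, for 4 of the 10 genes in EAT, against 29% of all probes: Me1 (adjusted p = 3.33e-07), Thrsp (adjusted p = 4.09e-07), Acss2 (adjusted p = 0.00683) and Slc25a1 (adjusted p = 0.00701). In liver it changed for 5, against 5.37%: Slc25a1 (adjusted p = 6.24e-06), Acly (adjusted p = 0.00298), Acss2 (adjusted p = 0.0129), Scd1 (adjusted p = 0.0149) and Me1 (adjusted p = 0.0153). The EAT count is near the share of all probes, and without the 2-week and 24-week arrays none of the 10 passed there. The sign of a passed difference turned between weeks for Me1 in EAT (2.27 at 2 weeks, -0.76 at 24 weeks) and for Slc25a1 in liver (0.45 at 6 weeks, -0.64 at 16 weeks). For Me1 the 2-week contrast sets arrays of different background against each other and turned to -0.37 (adjusted p = 0.552) less the ND difference between 20 and 24 weeks, and the 24-week call was lost without any 1 of 4 arrays (ND pools 1 and 3, HFD pools 4 and 6).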

How the results depend on the processing

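In EAT, 6 members fell at 2 weeks, 0 at 8, 3 at 20 and 9 at 24. With the second brightest probe 3 fell at 2 weeks. In this setting, in every tissue, genes without a second probe kept their only probe. The second Elovl6 probe, which was not detected in EAT, was at 0.051 at 2 weeks in place of -1.67. Student's t-test in place of limma gave, after Benjamini-Hochberg, 1 at 2 weeks, 0 at 20 and 0 at 24 weeks. Unadjusted with over 2-fold it gave 3 at 2 weeks, 1 at 8, 1 at 20 and 5 at 24 weeks. The share of all probes that this t-test called was not counted in EAT or liver. Each week alone gave 4 at 8 weeks, against 2.3% of all probes. Less the ND difference between 20 and 24 weeks, 2 fell and 0 rose at 2 weeks, with Me1 at -0.37. Without the 2-week arrays Me1 averaged -0.34 in place of 0.18 and 2 members passed the interaction, and without the 2-week and 24-week arrays 4 members fell in the mean and 0 passed the interaction. Median scaling, normexp, the deposited values and the detection filter moved no count of members by over 1.5 times.

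In liver, 1 fell at 2 weeks, 5 at 4, 4 at 6 (2 rose), 3 at 8, 4 at 12, 3 at 16, 1 at 20 and 4 at 24 weeks. With the second brightest probe 0 fell at 2 weeks, 2 at 4, 1 at 6 (1 rose), 0 at 20, 2 at 24 weeks and 4 in the mean. At 12 weeks Elovl6 was at 0.026 and Acacb at 0.16, both from dim probes whose detection in liver was not analysed. Student's t-test after Benjamini-Hochberg gave 0 at 2, 4, 8, 12, 16, 20 and 24 weeks, and 1 fall and 1 rise at 6 weeks. Unadjusted with over 2-fold it gave 2 at 4 weeks, 0 and 0 at 6, 1 at 8, 2 at 12, 1 at 16 and 2 at 24 weeks. Each week alone gave 2 at 2 weeks (against 1.23% of all probes), 0 at 16 (0.0618%) and 2 at 20 weeks (2%). Array weights gave 2 at 2 weeks. In MAT the second brightest probe left 2 members over 2-fold lower at 2 weeks, 3 at 4 and 2 at 20 weeks. Elovl6 was at 0.061 at 2 weeks, from a probe not detected on either array of that week. The cause of these shifts was not tested.

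Leaving out 1 array gave 4 to 6 falls and 1 rise in EAT at 2 weeks, 0 to 3 falls at 20 weeks, 6 to 9 at 24 weeks, 8 falls and 0 to 1 rises in the mean (Me1 rose without ND pool 1 of 20 weeks, Acaca without HFD pool 2 of 20 weeks or HFD pool 4 of 24 weeks) and 4 to 7 in the interaction. In liver it gave 1 to 3 falls at 6 weeks, 2 to 3 at 12, 3 to 4 at 16 and 3 to 5 at 24 weeks, and 4 to 6 in the interaction. Same-numbered arrays did not deviate together (3 of 12 pairs in EAT and 1 of 21 in liver correlated above 0.1), and with the replicate number as a block the counts of falls were 6, 0, 0 and 3 in EAT at 2, 4, 8 and 20 weeks and 1, 5, 4, 4, 4, 3 and 1 in liver up to 20 weeks. At 24 weeks the numbers are not shared. The share of all probes was not counted in the fits of this paragraph.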
